A study of Mus musculus with 70 samples.

Results

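The genes described here encode the contents of the cytotoxic granule and the killing molecules that go with it: the granzymes Gzma, Gzmb and Gzmk, the pore former Prf1, the granule proteoglycan Srgn, the granule membrane protein Nkg7, the protease Ctsw, the chemokine Ccl5 and the death ligand Fasl. They were listed by name, with no threshold on their values but with earlier results of these data known, and each symbol matched 1 of the 53465 gene identifiers of the count table. All 9 also passed the filter on low counts, which left 13173 protein-coding genes for testing. RNA was sequenced from regulatory T cells (Tregs, the CD4+ T cells that carry the transcription factor FOXP3) sorted from blood, spleen, lungs, colon, back skin and the visceral adipose tissue of the abdomen (VAT) of 5 mice. From every tissue ST2+ CD44hi and ST2- CD44hi Tregs were taken, and from spleen and lungs also ST2- CD44lo CD62L+ Tregs, which gives 14 groups of 5 libraries. ST2 is the receptor for the alarmin IL-33, CD44 is high on cells that have met antigen, and CD62L marks cells that recirculate through lymph nodes.

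All mice were Foxp3YFP-cre males, 16.6 to 18.6 weeks old, with no treatment given in the labels. In these mice YFP fused to Cre is expressed from the Foxp3 locus, and YFP was the signal by which Tregs were sorted, so every group carries the same reporter allele. The same 5 animals gave all 14 groups. The sort kept live CD4+ YFP+ cells and gated out, among others, those with CD8 or the myeloid protein CD11b, with no gate against an NK cell marker. Each library was made from 220 sorted cells or fewer, and only in spleen and lungs were CD4 T cells enriched with beads before the sort.

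Cytotoxic lymphocytes store granzymes on the proteoglycan serglycin in acidic granules and release them with perforin, which lets the proteases enter a target cell. Granzyme B then cleaves caspases and other substrates after aspartate, whereas granzymes A and K cut after basic residues. Fas ligand kills by a separate route, through the death receptor Fas. Tregs can hold granzymes and perforin, and their killing of effector and antigen-presenting cells is among the ways in which Tregs are known to suppress, but the same genes are also typical of CD8 T cells and NK cells.

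After 3 libraries with under 1000000 counts were set aside (1 from blood ST2+ and 2 from colon ST2+), 67 libraries with 1304560 to 2759926 counts remained. At the median depth 3 counts equal 1.47 CPM (reads counted per 1000000 in the library). Foxp3 was counted in all 67 libraries at 106 to 412 CPM. The summed level of 6 listed Treg markers (Foxp3, Il2ra, Ctla4, Ikzf2, Cd4 and Cd3e) was 2127 to 5328 CPM. Within this sum Cd4 (median 365 CPM) and Cd3e (median 481 CPM) are not particular to Tregs. Of 7 NK cell markers the sum had a median of 0 and a highest value of 156 CPM, and the NK receptor gene Ncr1 had counts in 4 libraries, which were VAT ST2- of mouse 2, VAT ST2+ of mouse 4, and skin ST2+ of mice 1 and 3. Cd8a had counts in 2 libraries, whereas Cd8b1 had counts in all 67, at 3.90 to 96.7 CPM. Myeloid markers, summed over 8 genes, reached 834 to 997 CPM in colon ST2+ against 27.4 to 198 CPM in colon ST2-, and 73.8 to 207 CPM in VAT ST2+ against 0.663 to 90.7 CPM in VAT ST2-. Since each library is a bulk of sorted cells, fewer cells expressing a gene and less RNA per cell cannot be told apart.

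Per kilobase of exon, which allows levels of different genes to be compared, Srgn stood highest with a median of 235 CPM per kb over the 67 libraries. Nkg7 followed at 133, Ctsw at 83.7, Ccl5 at 71.1, Gzmb at 56.9, Fasl at 20.1 and Prf1 at 3.30 CPM per kb, and the medians of Gzma and Gzmk were 0. Srgn and Fasl had counts in every library, Nkg7 and Ctsw in 66, Ccl5 in 64, Gzmb in 62, Prf1 in 52, Gzma in 23 and Gzmk in 11. The granule carrier was therefore counted everywhere, and the tryptic granzymes in a minority of libraries.

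**Figure D1:**
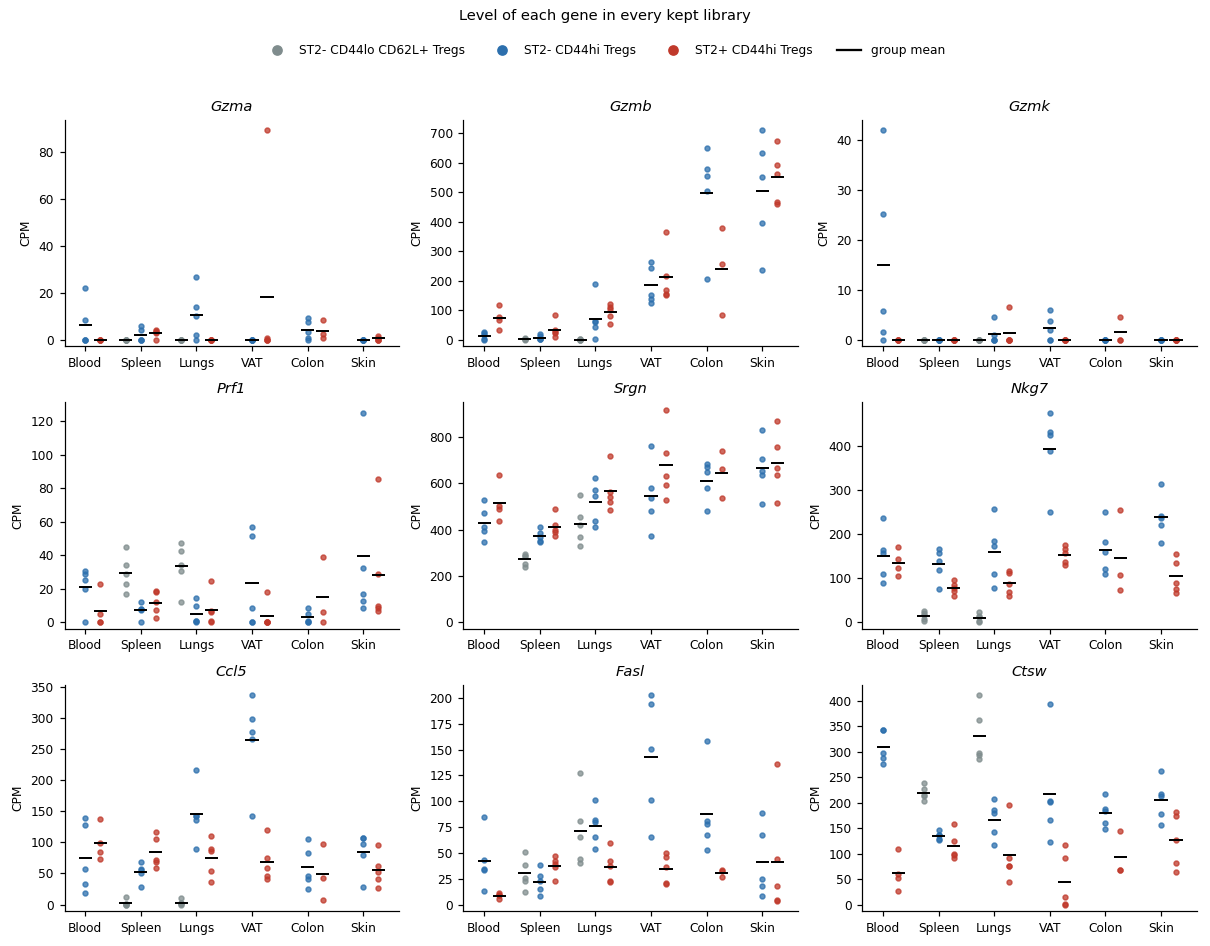
Level of each of the 9 genes (CPM, 1 panel per gene) in every kept library of the 14 groups, with points for mice and bars for group means. Gzmb climbs from 0.182 CPM in lungs CD44lo CD62L+ Tregs to 551 CPM in skin ST2+ Tregs, whereas Gzma and Gzmk sit at 0 in most libraries.

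Gzmb (ENSMUSG00000015437, chr14:56258838-56262260 of GRCm38, minus strand), the granzyme that activates caspases, had the widest range over tissues. Its group means were 551 CPM in skin ST2+, 505 in skin ST2-, 499 in colon ST2-, 238.7 in colon ST2+, 211 in VAT ST2+, 184 in VAT ST2- and 93.5 in lungs ST2+ Tregs. Below these came blood ST2+ with 72.2 CPM, lungs ST2- with 71.3, spleen ST2+ with 33.8, blood ST2- with 12.5 and spleen ST2- with 6.96, and CD44lo CD62L+ Tregs were lowest with 2.78 CPM in spleen and 0.182 in lungs. Between neighbours in this order the libraries overlapped at every step except that from VAT ST2- (126 CPM or more) to lungs ST2+ (121 CPM or less).

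Because Gzmb rose in several tissues over spleen, as given below, the 250 bases before its start site are shown. They are from RefSeq on GRCm38.p6 (chr14:56262335-56262584, minus strand, 5′ to 3′), with an AP-1 motif (TGANTCA) 58 bases and RUNX motifs (TGTGGT) 93 and 34 bases before the start in capitals. This RefSeq start lies upstream of the gene's end in the annotation used for the coordinates above.
Gzmb: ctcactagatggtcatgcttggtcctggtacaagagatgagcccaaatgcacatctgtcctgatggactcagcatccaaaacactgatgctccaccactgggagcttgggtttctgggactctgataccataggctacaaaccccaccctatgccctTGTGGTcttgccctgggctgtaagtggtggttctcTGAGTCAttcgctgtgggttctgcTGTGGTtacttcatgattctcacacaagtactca

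RefSeq windows were at hand for 7 of the 9 genes, all but Ccl5 and Ctsw, with 2 windows for Srgn and 1 for each of the others, and 5 motifs were searched on both strands. RUNX (TGTGGT) was found in 5 of the 7 (Gzma, Gzmb, Prf1, Srgn and Nkg7) and in 14% of 32851 windows of the same length. ETS (GGAAGT) was found in Gzmk, Prf1, Srgn and Fasl and in 19.7% of windows, and T-box (GGTGTG) in Gzmk, Nkg7 and Fasl and in 16.3%. AP-1 was found in Gzmb alone among the 7 and in 6.75% of windows, and the letters AGATAA, bound by GATA factors, in none of the 7 and in 9.99%. For Srgn the RUNX match lay in 1 window and the ETS match in the other, whereas the shares are per window. For Gzmb, Gzmk and Prf1 the bases just after the RefSeq start matched no transcript of the gene in the annotation used for coordinates. The Gzmk window (chr13:113180966-113181215) lies inside the gene in that annotation. All of these are matches of letters only, with no measure of binding.

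Gzma (ENSMUSG00000023132, chr13:113093825-113100981, minus strand) and Gzmk (ENSMUSG00000042385, chr13:113171608-113225908, minus strand) encode the tryptic granzymes and lie near each other on chromosome 13. Gzma was highest in single libraries: in VAT ST2+ it was 0, 0, 0.453, 0 and 89.2 CPM in mice 1 to 5, and in lungs ST2- it was 0, 1.97, 13.7, 10.1 and 26.6 CPM. It had no counts in any library of blood ST2+, lungs ST2+, VAT ST2- and skin ST2- Tregs nor in both CD44lo CD62L+ groups. Gzmk was found mainly in blood ST2- Tregs, at 5.81, 0, 1.46, 25.2 and 42.0 CPM, and in VAT ST2- Tregs, at 3.78, 0, 1.91, 0 and 5.88 CPM. Outside these groups 4 libraries had Gzmk counts, 3 of them from lungs and 1 from colon ST2+, and neither skin nor spleen had any. Gzmk overlaps Esm1 on the other strand, and whether counting used the strand is not given in the sources used here.

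Prf1 (ENSMUSG00000037202, chr10:61297833-61304680, plus strand), perforin, varied widely between the libraries of several groups. It was 34.2, 47.0, 30.4, 42.5 and 11.9 CPM in lungs CD44lo CD62L+ Tregs and 28.6, 16.8, 33.8, 22.7 and 44.6 CPM in the same population of the spleen. Skin ST2- had the highest group mean, 39.2 ± 48.8 CPM (SD, n = 5), which rests on mouse 1 with 125 CPM against 8.54 to 32.4 CPM in the other 4. In skin ST2+ Tregs mouse 1 again stood highest, with 85.5 CPM against 6.65 to 29.0 CPM. The NK marker sum was 0 in the skin ST2- library of mouse 1 and 94.8 CPM in its skin ST2+ library.

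Srgn (ENSMUSG00000020077, chr10:62493833-62527451, minus strand), serglycin, was 238 to 918 CPM over all libraries. Its group means went from 271 ± 24.3 CPM in spleen CD44lo CD62L+ Tregs to 689 ± 133 CPM in skin ST2+ Tregs (SD, n = 5 each). Neighbouring groups in the order overlapped everywhere except at the foot, where spleen ST2- CD44hi (345 to 412 CPM) lay above spleen CD44lo CD62L+ (238 to 293 CPM).

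Nkg7 (ENSMUSG00000004612, chr7:43437073-43438249, plus strand) encodes a granule membrane protein needed for degranulation, and Ctsw (ENSMUSG00000024910, chr19:5465043-5468507, minus strand) the papain-like protease cathepsin W of cytotoxic cells. Nkg7 was highest in VAT ST2- Tregs, at 249 to 475 CPM, and lowest in CD44lo CD62L+ Tregs, at 3.10 to 26.0 CPM in spleen and 0 to 22.6 CPM in lungs. Between spleen ST2+ (58.8 CPM or more) and spleen CD44lo CD62L+ Tregs lay the only step in its order without overlap. Ctsw had another order: lungs CD44lo CD62L+ Tregs were highest with 330 ± 54.4 CPM (SD, n = 5), followed by blood ST2- with 309 ± 31.2 CPM, and VAT ST2+ Tregs were lowest with 44.7 ± 55.2 CPM. Its only step without overlap was from blood ST2- (275 CPM or more) to spleen CD44lo CD62L+ Tregs (238 CPM or less). Ctsw overlaps Fibp on the other strand.

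Ccl5 (ENSMUSG00000035042, chr11:83525778-83530518, minus strand), a chemokine that draws leukocytes, was highest in VAT ST2- Tregs with 264 ± 72.9 CPM and lowest in CD44lo CD62L+ Tregs of the spleen with 2.43 ± 5.0 CPM (SD, n = 5 each). Fasl (ENSMUSG00000000817, chr1:161780689-161788495, minus strand), the ligand of Fas, was likewise highest in VAT ST2- Tregs with 143 ± 59.1 CPM but lowest in blood ST2+ Tregs with 8.37 ± 2.26 CPM (SD, n = 4). For both genes the highest group overlapped the next one.

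Since Fasl was called both between tissues and between ST2+ and ST2- Tregs, its 250 bases before the start are also shown (RefSeq, GRCm38.p6, chr1:161788496-161788745, minus strand, 5′ to 3′). The capitals mark a T-box motif 190 bases and an ETS motif 26 bases before the start, both as the reverse complement of the letters given above.
Fasl: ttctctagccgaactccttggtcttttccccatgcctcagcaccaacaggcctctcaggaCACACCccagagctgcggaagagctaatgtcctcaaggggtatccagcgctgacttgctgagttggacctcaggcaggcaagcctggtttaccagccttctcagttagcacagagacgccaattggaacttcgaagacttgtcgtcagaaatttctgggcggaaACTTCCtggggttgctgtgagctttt

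The first comparison asked how ST2- CD44hi Tregs differed from ST2- CD44lo CD62L+ Tregs of the same organ. In spleen 2 of the 9 genes were called, against 4.99% of all genes tested, and in lungs 4 of 9, against 5.55%. A gene was called where edgeR's quasi-likelihood test gave an adjusted p (Benjamini-Hochberg, over all genes tested) no higher than 0.05 together with a fold change of 1.5 or more, and every adjusted p below is from that test unless another is named. All 6 calls were higher in CD44hi Tregs, and the carrier, the pore former, the death ligand and Ctsw were not among them. The 9 genes had a median log2 difference of 0.46 in spleen and of 4.07 in lungs, where the median was 1.98 once the 2 genes without counts in 1 group were set at their bounds.

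Nkg7 in the spleen was 75.2, 119, 156, 165 and 139 CPM in CD44hi and 16.3, 26.0, 6.14, 3.10 and 19.97 CPM in CD44lo CD62L+ Tregs of mice 1 to 5. In the lungs it was 76.2, 256, 172, 185 and 110 CPM against 0, 1.5, 12.6, 10.3 and 22.6 CPM. In both organs the lowest CD44hi library lay above the highest CD44lo CD62L+ library. Nkg7 rose 8.98-fold in spleen (log2 3.17 ± 0.42, SE, adjusted p = 9.38e-08) and 16.8-fold in lungs (log2 4.07 ± 0.45, SE, adjusted p = 3.53e-10).

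Ccl5 was near 0 in most CD44lo CD62L+ libraries. In spleen it was 27.9, 57.0, 50.3, 55.7 and 68.5 CPM against 0, 0.401, 0.384, 11.4 and 0 CPM. In lungs it was 215, 135, 142, 143 and 89.9 CPM against 0, 2.0, 2.34, 10.3 and 1.19 CPM. The groups did not overlap, and the highest CD44lo CD62L+ library of each organ came from mouse 4. Ccl5 rose 24.2-fold in spleen (log2 4.60 ± 0.69, SE, adjusted p = 1.51e-06) and 48.6-fold in lungs (log2 5.60 ± 0.69, SE, adjusted p = 8.38e-09).

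Gzmb separated the populations in lungs, where it was 58.6, 2.63, 62.4, 190 and 43.2 CPM in CD44hi and 0.367, 0, 0, 0.544 and 0 CPM in CD44lo CD62L+ Tregs. It rose by 8.23 ± 1.12 on the log2 scale (SE, adjusted p = 1.25e-07), with no overlap. In spleen it was 0.367, 0.416, 19.5, 1.65 and 12.9 CPM against 6.89, 0, 0.384, 3.10 and 3.52 CPM, and these overlapped (log2 1.29 ± 0.87, SE, adjusted p = 0.571). Gzma in lungs had no counts in CD44lo CD62L+ Tregs and was at least 39.0-fold higher in CD44hi Tregs by a floor of 3 counts over the group (adjusted p = 0.0447). The groups overlapped at 0, with mouse as a replicate block the adjusted p was 0.0602, and omission of any 1 mouse took it to between 0.0794 and 0.162.

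Perforin and Ctsw had their higher values in the CD44lo CD62L+ cells, without passing the test. Prf1 in spleen was 8.07, 7.90, 11.8, 0 and 6.99 CPM in CD44hi Tregs, all below the 16.8 to 44.6 CPM of CD44lo CD62L+ Tregs (log2 -2.07 ± 1.29, SE, adjusted p = 0.506). In lungs it was 0, 0.657, 14.5, 0.531 and 9.60 CPM in CD44hi Tregs, lower than CD44lo CD62L+ in 5 of 5 mice but with overlap (log2 -2.65 ± 1.32, SE, adjusted p = 0.27). Ctsw in spleen was 146, 136, 137, 129 and 126 CPM in CD44hi and 214, 227, 212, 238 and 202 CPM in CD44lo CD62L+ Tregs. The 2 ranges were apart in spleen and also in lungs, with 117 to 206 CPM against 285 to 410 CPM, yet the adjusted p was 0.515 (log2 -0.70 ± 0.44, SE) and 0.204 (log2 -0.99 ± 0.44, SE). With limma's voom and quality weights, an alternative, Prf1 and Ctsw were called lower in CD44hi Tregs of both organs. Ctsw was also called lower in both when the spleen and lung libraries were fitted alone, so these 4 results depend on the fit.

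**Figure D2:**
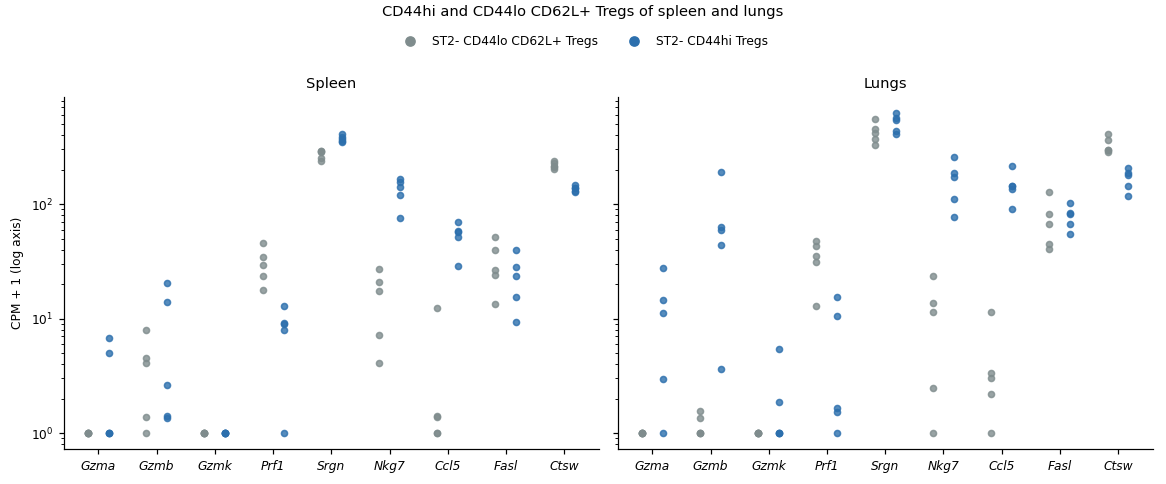
CPM + 1 (log axis) of the 9 genes in CD44hi and CD44lo CD62L+ Tregs (both ST2-) of each organ, spleen and lungs, with a point for every mouse. Nkg7 and Ccl5 of CD44hi Tregs lie above every CD44lo CD62L+ library in both organs, whereas Ctsw lies below.

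Srgn was 345 to 412 CPM in spleen CD44hi Tregs and 238 to 293 CPM in CD44lo CD62L+ Tregs, which did not overlap but differed by less than 1.5-fold (log2 0.46 ± 0.15, SE, adjusted p = 0.066). Fasl had log2 differences of -0.44 in spleen (adjusted p = 0.878) and 0.10 in lungs (adjusted p = 1). Gzmk had no counts in spleen in either population.

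The second comparison set the CD44hi Tregs of each tissue against those of the spleen, with ST2- and ST2+ cells taken separately. All comparisons of a kind share the same 5 spleen libraries, and the spleen ST2- CD44hi libraries also stand in the comparison above. Among ST2- Tregs, VAT had 4 of the 9 genes called, against 5.91% of all genes tested. Colon had 3 (against 11.1%), skin 2 (30.9%), lungs 2 (4.08%) and blood 1 (3.61%). All 12 calls were higher than in spleen. In skin 2 of 9 lies below the share over all genes; limma's voom called 4 there, Gzmb, Srgn, Nkg7 and Ctsw.

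Gzmb was called in 4 of the 5 tissues in ST2- cells. Against 0.367 to 19.5 CPM in spleen it was 138, 151, 126, 243 and 263 CPM in VAT, 555, 580, 505, 204 and 650 CPM in colon, and 236, 551, 633, 710 and 396 CPM in skin. Every library of these 3 tissues lay above every spleen library. Gzmb rose 26.2-fold in VAT (log2 4.71 ± 0.67, SE, adjusted p = 4.59e-07), 71.0-fold in colon (log2 6.15 ± 0.70, SE, adjusted p = 6.21e-10) and 71.9-fold in skin (log2 6.17 ± 0.70, SE, adjusted p = 1.35e-10). In lungs it rose 10.2-fold (log2 3.35 ± 0.66, SE, adjusted p = 0.000325) with overlap. Without mouse 4, whose lung library held 190 CPM, the lung difference was 2.36 on the log2 scale with an adjusted p of 0.0525, and limma's voom gave an adjusted p of 0.0935.

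Nkg7, Ccl5 and Fasl peaked together in VAT ST2- Tregs. Nkg7 was 249, 426, 387, 475 and 430 CPM there against 75.2 to 165 CPM in spleen, and rose 3.01-fold (log2 1.59 ± 0.38, SE, adjusted p = 0.00338). Ccl5 was 143, 298, 266, 336 and 278 CPM against 27.9 to 68.5 CPM and rose 5.09-fold (log2 2.35 ± 0.54, SE, adjusted p = 0.00224). Fasl was 65.6, 101, 151, 194 and 203 CPM against 8.25 to 38.4 CPM and rose 6.40-fold (log2 2.68 ± 0.56, SE, adjusted p = 0.00065). For all 3 genes each VAT library lay above each spleen library, and the calls held in all 16 alternatives tried. NK cell markers summed to 0, 61.0, 0.477, 0 and 0 CPM in the VAT ST2- libraries of mice 1 to 5. Myeloid markers summed to 0.663 to 90.7 CPM in VAT ST2- against 2.89 to 20.7 CPM in spleen ST2- libraries, with 1 of 6 tested called higher. Among the 16 alternatives was the fit without libraries that held Ncr1 counts, which left out VAT ST2- of mouse 2. Beyond that, the part of NK and myeloid markers in these results was not tested.

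Fasl was also called in lungs, where it was 101, 65.7, 53.5, 80.2 and 82.0 CPM (3.42-fold, log2 1.78 ± 0.55, SE, adjusted p = 0.0426), and in colon, where it was 77.7, 81.0, 159, 67.4 and 52.4 CPM (3.91-fold, log2 1.97 ± 0.55, SE, adjusted p = 0.0109). Both lay above all spleen libraries. The lung call was lost in 9 of the 16 alternatives, among them the omission of any 1 mouse (adjusted p = 0.0684 to 0.178), and the colon call without mouse 2 and without mouse 3, with a highest adjusted p of 0.0990.

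Srgn rose 1.64-fold in colon (482 to 683 CPM, log2 0.72 ± 0.15, SE, adjusted p = 0.000561) and 1.80-fold in skin (511 to 833 CPM, log2 0.84 ± 0.15, SE, adjusted p = 1.18e-05) over 345 to 412 CPM in spleen, with no overlap. Other markers moved in colon ST2- too. The 3 B cell markers summed to 59.7 to 105 CPM, against 0.423 to 7.02 CPM in spleen ST2-. The 8 myeloid markers summed to 27.4 to 198 CPM, against 2.89 to 20.7 CPM. Among the tested B cell, myeloid and mast cell markers 1 gene each was called higher. Of the 2 tested mast cell markers, Kit was 6.32 to 42.2 CPM in colon ST2- and Cpa3 1.26 CPM or less. The part of all these markers in the colon calls of Gzmb, Fasl and Srgn was not tested. In VAT the Srgn fold of 1.47 stayed under the fold threshold (adjusted p = 0.0148). Gzmk, with no counts in spleen ST2- Tregs, was at least 59.3-fold higher in blood (adjusted p = 0.0469), where mouse 2 had none. With the replicate block its adjusted p was 0.0666, and omission of any 1 mouse took it to between 0.0649 and 0.167.

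Among ST2+ Tregs, VAT had 3 of the 9 genes called, against 11.2% of all genes tested. Colon had 2 (against 10.5%), skin 2 (29.1%), blood 1 (4.35%) and lungs 0 (4.9%). In lungs 4 genes had an unadjusted p under 0.05 in edgeR, and DESeq2 and limma's voom each called 1, Gzma, which was lower there. The log2 difference of Gzmb in lungs was 1.5 ± 0.57 (SE, adjusted p = 0.118), which became 1.70 with an adjusted p of 0.0441 under the replicate block. Gzmb was 8.95, 33.1, 21.2, 81.7 and 24.1 CPM in spleen ST2+ Tregs, above those of ST2- cells in 5 of 5 mice. It was 150, 155, 169, 215 and 365 CPM in VAT, 83.7, 255 and 377 CPM in the 3 colon libraries, and 461, 466, 563, 675 and 592 CPM in skin, all above spleen. It rose 6.34-fold in VAT (log2 2.66 ± 0.58, SE, adjusted p = 0.000681), 7.17-fold in colon (log2 2.84 ± 0.63, SE, adjusted p = 0.00138) and 16.6-fold in skin (log2 4.05 ± 0.61, SE, adjusted p = 2.69e-07).

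Srgn rose alongside, from 372 to 488 CPM in spleen to 527 to 918 CPM in VAT (1.64-fold, adjusted p = 0.000464), 537 to 743 CPM in colon (1.56-fold, adjusted p = 0.00971) and 517 to 870 CPM in skin (1.67-fold, adjusted p = 0.000115). The ranges were apart in all 3 tissues. Without mouse 5 the VAT difference fell below the fold threshold (log2 0.57, adjusted p = 0.032), and without mouse 3, which left 2 colon libraries, the colon call was lost (adjusted p = 0.211). Colon ST2+ libraries also had the highest myeloid marker sums, with 6 of 6 tested called higher than in spleen, and B cell marker sums of up to 184 CPM. In VAT ST2+ the myeloid sum was 73.8 to 207 CPM, against 2.24 to 13.1 CPM in spleen ST2+, with 3 of 6 tested called higher. NK markers there summed to 0, 2.89, 1.36, 156 and 0 CPM in mice 1 to 5. The VAT calls of Gzmb and Srgn held without the libraries that held Ncr1 counts. Beyond that, the part of these markers in the VAT and colon calls was not tested. In skin ST2+ the sum of 6 mast cell and basophil markers was 104, 124, 57.9, 709 and 25.1 CPM in mice 1 to 5. In spleen ST2+ it was 0 to 1.03 CPM, and both tested genes, Kit and Cpa3, were called higher in skin. Nearly all of the skin sum was Kit in mice 1, 2, 3 and 5 (103, 124, 57.9 and 25.1 CPM). Cpa3 had counts in skin ST2+ of mouse 4 alone (260 CPM), as did Mcpt4 and Cma1. The highest skin ST2+ Gzmb, 675 CPM, came from mouse 4. NK markers summed to 94.8, 0.665, 36.4, 0 and 0 CPM in skin ST2+ of mice 1 to 5, and to 0 to 2.07 CPM in spleen ST2+. Of the 2 tested NK markers 1 was called higher in skin. The skin calls of Gzmb and Srgn held without mouse 4 and also without the libraries that held Ncr1 counts. Beyond that, the part of mast cell, basophil and NK markers in them was not tested.

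The 2 calls below spleen were Fasl in blood and Ctsw in VAT. Fasl in blood ST2+ Tregs was 8.76, 5.27, 8.77 and 10.7 CPM in mice 2 to 5, against 47.4, 36.8, 23.1, 42.4 and 39.0 CPM in spleen, and fell 4.49-fold with no overlap (log2 -2.17 ± 0.63, SE, adjusted p = 0.0284). Ctsw in VAT ST2+ Tregs was 117, 0, 14.9, 91.2 and 0.661 CPM, against 91.8, 158, 124, 99.3 and 96.3 CPM, and fell 2.47-fold with overlap (log2 -1.31 ± 0.46, SE, adjusted p = 0.0471). The first was lost in 7 of 16 alternatives, among them the omission of mouse 2, 3, 4 or 5 (adjusted p = 0.0634 to 0.176). The second was lost in 6, among them the omission of mouse 3 or 5 and of mouse 2, which left a log2 difference of -0.84 (adjusted p = 0.234).

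**Figure D3:**
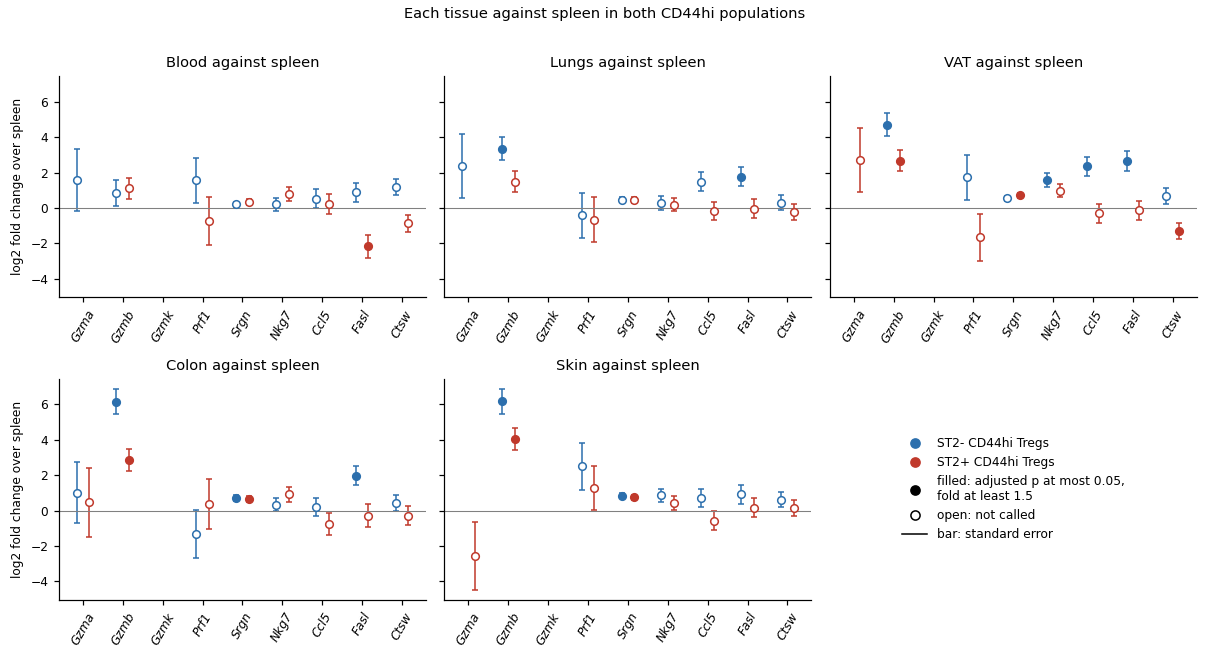
Log2 fold change of each gene in blood, lungs, VAT, colon and skin against spleen, for ST2- and ST2+ CD44hi Tregs, with bars for the standard error. Contrasts in which a group had no counts are not drawn. In VAT, colon and skin the points of Gzmb lie between 2.66 (VAT ST2+) and 6.17 (skin ST2-).

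The third comparison set ST2+ against ST2- CD44hi Tregs within a tissue. VAT had 5 of the 9 genes called, against 3.2% of all genes tested, and blood 3, against 4.13%. The other tissues had 0, against 0.0683% in colon, 0.22% in skin, 0.357% in spleen and 0.789% in lungs. Of the 8 calls 2 were higher and 6 lower in ST2+ Tregs. The median log2 difference of the 9 genes was lowest in VAT with -1.96, then -1.59 in blood, -0.78 in lungs, -0.17 in colon, 0 in skin and 0.46 in spleen, and it was the same with genes without counts set at their bounds. The median over all genes tested in VAT was -0.0084, and in blood it was 0.

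In VAT, Nkg7 was 175, 130, 136, 166 and 156 CPM in ST2+ Tregs of mice 1 to 5, against 249, 426, 387, 475 and 430 CPM in ST2- Tregs. It fell 2.57-fold (log2 -1.36 ± 0.38, SE, adjusted p = 0.0236). Ccl5 was 120, 45.7, 40.7, 57.9 and 74.0 CPM against 143, 298, 266, 336 and 278 CPM. It fell 3.89-fold (log2 -1.96 ± 0.53, SE, adjusted p = 0.0207). Fasl was 49.7, 45.7, 19.5, 36.0 and 20.5 CPM against 65.6, 101, 151, 194 and 203 CPM. It fell 4.15-fold (log2 -2.05 ± 0.55, SE, adjusted p = 0.0186). Ctsw was 117, 0, 14.9, 91.2 and 0.661 CPM against 394, 122, 165, 202 and 203 CPM, and fell 4.73-fold (log2 -2.24 ± 0.47, SE, adjusted p = 0.00127). All 4 genes were lower in ST2+ cells of 5 of 5 mice, and each ST2+ library lay below each ST2- library.

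Granzyme B and the carrier did not share in this. Gzmb in VAT differed by 0.19 on the log2 scale (adjusted p = 0.93) and Srgn by 0.31 (adjusted p = 0.263). Prf1 was 0, 0, 0, 17.8 and 0 CPM in ST2+ and 0, 0, 8.11, 51.4 and 56.8 CPM in ST2- Tregs (log2 -2.66 ± 1.34, SE, adjusted p = 0.286). The ST2+ library with counts, of mouse 4, held 156 CPM of NK markers, and Prf1 was called lower in ST2+ Tregs without mouse 4 and without the libraries that held Ncr1 counts. Gzma was called higher, at least 61.1-fold against no counts in ST2- Tregs (adjusted p = 0.0458). That call rests on mouse 5 with 89.2 CPM, and without this mouse the adjusted p was 0.694. With the replicate block it was 0.146, and the call was kept in 3 of 15 alternatives.

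Among these VAT calls Ctsw held in all 16 alternatives (adjusted p = 0.00029 to 0.0293). Leaving out single mice took the adjusted p of Nkg7 to between 0.0977 and 0.124 (mice 2 to 5), that of Ccl5 to 0.148, 0.147 and 0.0932 (mice 2, 3 and 5) and that of Fasl to 0.134, 0.0657 and 0.146 (mice 3, 4 and 5). The VAT ST2- libraries of mice 2 to 5 came from 93 to 192 sorted cells, and all VAT ST2+ libraries from 220. With a covariate for how many cells were sorted, an alternative chosen after the data were seen, the log2 differences were -1.30 for Nkg7 (adjusted p = 0.0707), -1.89 for Ccl5 (adjusted p = 0.0597) and -2.26 for Fasl (adjusted p = 0.0304). The summed myeloid markers were higher in VAT ST2+ libraries, with Itgam at 0 in all, and NK markers reached 156 CPM in mouse 4. Without the libraries that held Ncr1 counts, also chosen after seeing the data, the differences were -1.36 for Nkg7 (adjusted p = 0.0635), -1.86 for Ccl5 (adjusted p = 0.0804) and -2.17 for Fasl (adjusted p = 0.0176).

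In blood, Ctsw was 27.4, 110, 59.98 and 52.0 CPM in ST2+ Tregs of mice 2 to 5 and 342, 342, 297, 275 and 288 CPM in ST2- Tregs of mice 1 to 5. It fell 4.93-fold (log2 -2.30 ± 0.50, SE, adjusted p = 0.00246), a call that held in all 16 alternatives (adjusted p = 7.63e-05 to 0.0220). Fasl was 8.76, 5.27, 8.77 and 10.7 CPM against 13.0, 34.6, 33.1, 43.2 and 84.5 CPM and fell 4.95-fold (log2 -2.31 ± 0.63, SE, adjusted p = 0.021). Gzmb had the opposite sign, with 66.2, 75.5, 116 and 31.1 CPM in ST2+ against 0.447, 0, 22.4, 14.9 and 24.8 CPM in ST2- Tregs, and rose 5.76-fold (log2 2.53 ± 0.66, SE, adjusted p = 0.0145). For all 3 genes the ranges were apart and the 4 mice with both libraries moved the same way.

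The Fasl call in blood was lost in 7 of 16 alternatives, among them limma's voom (adjusted p = 0.209), the omission of mouse 2, 3, 4 or 5 (highest adjusted p = 0.138) and of libraries under 100 cells (adjusted p = 0.0765). That of Gzmb was lost in 4, which were voom (adjusted p = 0.328) and the omission of mouse 2, 3 or 4 (highest adjusted p = 0.0776). NK markers were at 0 in all 4 blood ST2+ libraries and reached 23.6 CPM in ST2-, with Ncr1 at 0 in both. Gzma and Gzmk had no counts in blood ST2+ Tregs. Their adjusted p against ST2- Tregs was 0.122 and 0.0817, and Gzmk was at least 41.0-fold lower by the floor. Gzmk was called lower with limma's voom and with all 70 libraries, and Gzma with DESeq2.

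**Figure D4:**
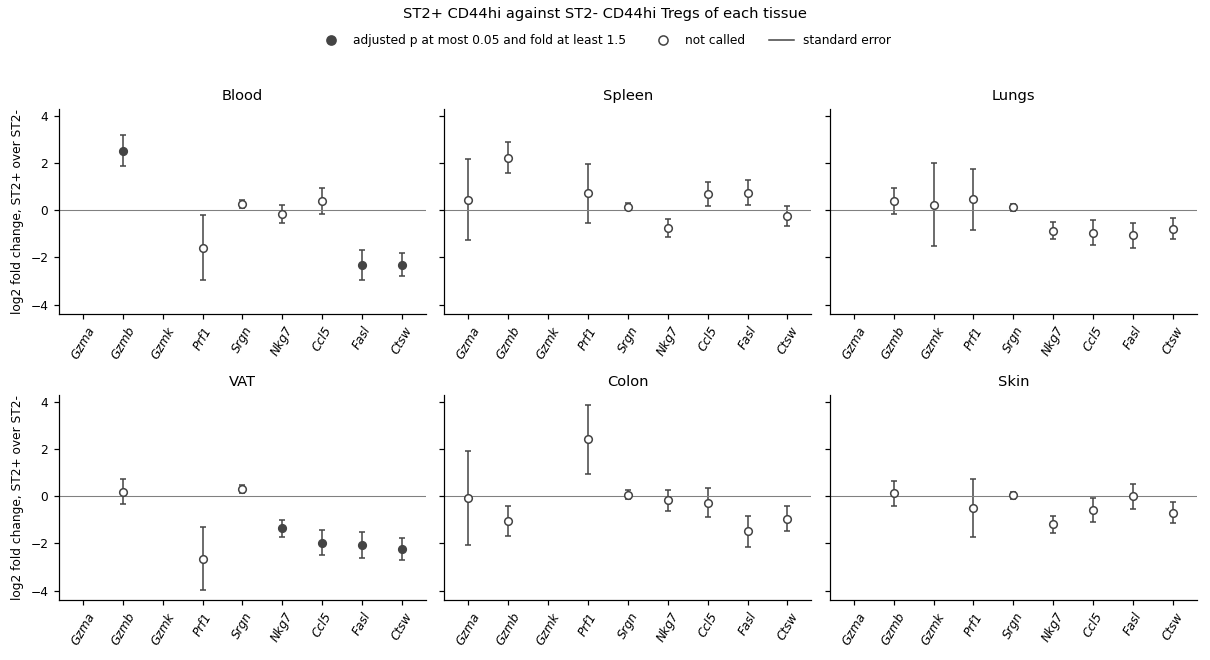
Log2 fold change of ST2+ over ST2- CD44hi Tregs for each gene in each of the 6 tissues, with bars for the standard error; contrasts in which a group had no counts are not drawn. In VAT Nkg7, Ccl5, Fasl and Ctsw lie between -1.36 and -2.24, whereas Gzmb lies at 2.53 in blood and 0.19 in VAT.

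In the other 4 tissues no gene passed the test, although several kept a direction in every mouse. In edgeR 2 genes in spleen, 2 in lungs, 2 in colon and 1 in skin had an unadjusted p under 0.05. DESeq2 called Gzma in lungs and in skin, and limma's voom called Gzma and Ctsw in lungs and Nkg7 in skin. In spleen Gzmb was higher in ST2+ cells of 5 of 5 mice (log2 2.24 ± 0.67, SE, adjusted p = 0.192), as was Ccl5 (log2 0.69), and Nkg7 was lower in 5 of 5 (log2 -0.76, adjusted p = 0.955). In lungs Ccl5 (log2 -0.95, adjusted p = 0.571), Fasl (log2 -1.05, adjusted p = 0.509) and Ctsw (log2 -0.78, adjusted p = 0.612) were lower in 5 of 5 mice. In skin Nkg7 was 133, 65.8, 155, 74.5 and 89.3 CPM against 241, 221, 179, 313 and 236 CPM, with no overlap (log2 -1.20 ± 0.38, SE, adjusted p = 0.253).

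In colon, with 3 ST2+ libraries, Gzmb was 83.7, 255 and 377 CPM against 555, 505 and 204 CPM in the ST2- libraries of the same mice 1, 3 and 4, and 580 and 650 CPM in mice 2 and 5 (log2 -1.06 ± 0.64, SE, adjusted p = 1). Fasl was 32.4, 27.1 and 33.4 CPM, below all ST2- libraries (52.4 to 159 CPM, log2 -1.49, adjusted p = 0.892). Ctsw was 66.8, 68.5 and 144 CPM, also below all of them (149 to 218 CPM, log2 -0.94, adjusted p = 1). Myeloid markers were 834 to 997 CPM in these ST2+ libraries, and their part in the differences was not tested.

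Taken over the 27 same-mouse pairs of all tissues, ST2+ cells had the lower Ctsw in 26, the lower Nkg7 in 23 and the lower Fasl in 22. Prf1 was lower in 18 with 3 pairs equal, and Ccl5 lower in 18. Srgn was higher in ST2+ cells in 21 pairs and Gzmb in 20. Pairs of the same mouse share an animal, so these counts carry no test.

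**Figure D5:**
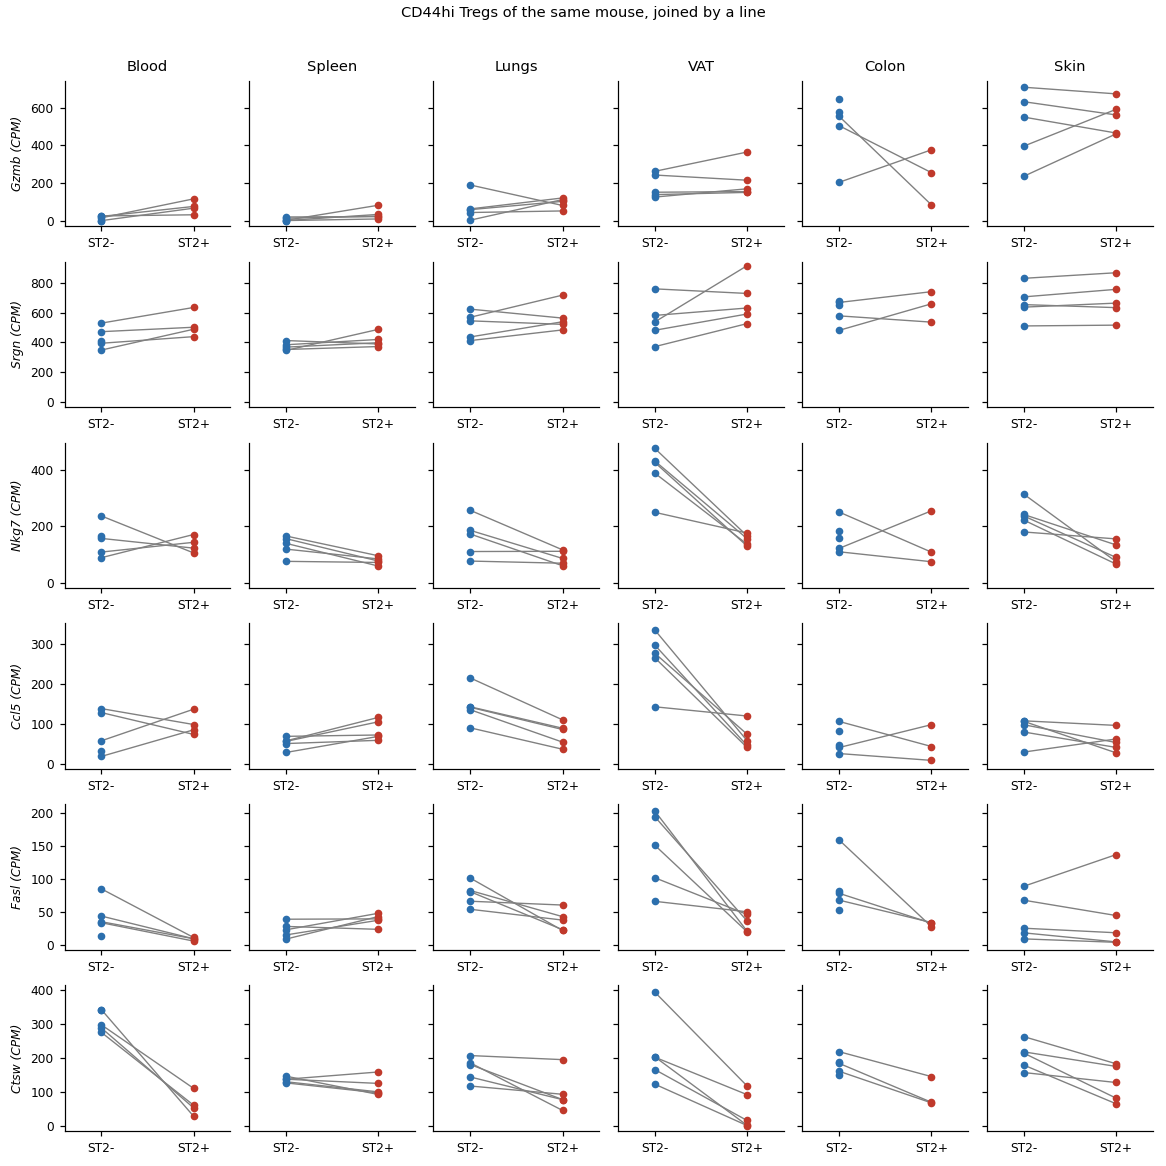
CPM of Gzmb, Srgn, Nkg7, Ccl5, Fasl and Ctsw in ST2- and ST2+ CD44hi Tregs, by tissue, with lines joining libraries of the same mouse. The lines of Ctsw slope down in 26 of 27 pairs and those of Srgn up in 21.

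Whether the ST2 difference varied over the 6 tissues was tested by 5 interaction terms together, and 1 of the 9 genes was called (adjusted p alone), against 1.4% of all genes tested. This was Gzma (adjusted p = 0.0285), whose values came from few libraries and for which the replicate block gave 0.0638. Gzmb and Fasl each had an adjusted p of 0.0747, and under the replicate block Gzmb had 0.0295 and Fasl 0.0752. Ctsw had 0.168, Gzmk 0.192, Ccl5 0.195, Prf1 0.577, Nkg7 0.590 and Srgn 0.998. By this test the calls of Ctsw and Fasl in blood and of Nkg7, Ccl5, Fasl and Ctsw in VAT are not shown to differ between tissues. DESeq2 called Fasl alone, and limma's voom called 5 of the 9, Gzma, Gzmk, Ccl5, Fasl and Ctsw.

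A list of 46 other genes of the granule and killing pathway, 40 of them tested, gave the wider setting. Of the 40, blood had 5 higher and 1 lower in ST2+ than in ST2- Tregs (4.13% of all genes called), VAT 1 and 4 (3.2%), spleen 2 and 0 (0.357%), lungs 1 and 0 (0.789%), colon 1 and 0 (0.0683%), and skin 0 and 0 (0.22%). CD44hi against CD44lo CD62L+ Tregs gave 10 higher and 0 lower in spleen (4.99%) and 12 higher and 1 lower in lungs (5.55%). Against spleen, ST2- Tregs gave 16 higher and 7 lower in skin (30.9%), with 10 and 0 for colon (11.1%), 13 and 1 for VAT (5.91%), 4 and 2 for lungs (4.08%), and 1 and 4 for blood (3.61%). For ST2+ Tregs skin gave 16 and 5 (29.1%), colon 10 and 2 (10.5%), VAT 10 and 5 (11.2%), lungs 5 and 3 (4.9%), and blood 1 and 3 (4.35%).

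Cst7, cystatin F, an inhibitor of granule cathepsins, rose with CD44 in the spleen from 55.5 ± 17.5 to 262 ± 26.2 CPM (SD, n = 5 each, log2 2.23 ± 0.23, SE, adjusted p = 5.54e-11). Stx11, a syntaxin of granule exocytosis, rose from 17.1 ± 7.50 to 170 ± 24.6 CPM (log2 3.29 ± 0.39, SE, adjusted p = 3.93e-09). Id2, a regulator of effector lymphocyte fate, rose in skin ST2- Tregs to 874 ± 167 CPM from 147 ± 26.7 CPM in spleen (adjusted p = 3.38e-11), and with ST2 in blood (log2 1.29, adjusted p = 0.0025) and spleen (log2 1.23, adjusted p = 0.0135).

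Igf2r, the mannose 6-phosphate receptor that sorts lysosomal enzymes, fell with ST2 in blood from 242 ± 95.7 to 53.3 ± 26.8 CPM (adjusted p = 0.00107) and in VAT from 83.1 ± 51.4 to 14.6 ± 14 CPM (adjusted p = 0.000171). Among receptors of CCL5, Ccr3 rose with ST2 in blood from 1.47 ± 2.68 to 140 ± 60.8 CPM (adjusted p = 3.29e-06) and in lungs from 6.16 ± 6.08 to 77.9 ± 14.8 CPM (adjusted p = 0.00488). Ccr1 was 223 ± 111 CPM in colon ST2- and 0.0846 ± 0.189 CPM in spleen ST2- Tregs (adjusted p = 1.08e-09). Tnfrsf10b, a death receptor for TRAIL, was 115 ± 17.5 CPM in skin ST2- and 3.69 ± 2.83 CPM in spleen ST2- Tregs (adjusted p = 2.37e-08).

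The genes whose level followed each member most closely were found by Spearman's rho over the 67 libraries, which share mice, tissues and depth, so the values are descriptions. Gzmb was closest to Id2, Cxcr6 and Cd44 (0.91 each), and Srgn to Rap1b (0.93), Sub1 (0.92) and Selenok (0.92). Nkg7 was closest to Tbx21 (0.70), Ccl5 (0.68) and Evi2a (0.67), and Ccl5 to Cxcr3 (0.75), Myo1f (0.68) and Nkg7 (0.68). Ctsw was closest to Igf2r (0.67), Znrf1 (0.66) and Foxo1 (0.66), Prf1 to Heca (0.60), Sltm (0.57) and Clcf1 (0.57), and Fasl to Atxn7l1 (0.52), Plcxd2 (0.51) and Arid5a (0.50). Within the 9 genes rho was 0.78 between Gzmb and Srgn, 0.54 between Gzmb and Nkg7 and 0.48 between Prf1 and Ctsw, and it was negative for Ctsw with Gzmb (-0.32) and with Srgn (-0.40). For Gzma (P2ry6, Elf3 and Fhdc1) and Gzmk (Ttc30a1, Msantd1 and Clec12a) most libraries were at 0, so these ranks carry little.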

How the data were processed

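Counts per gene were deposited by the authors for 70 libraries of mouse Tregs (SMART-Seq v4 cDNA, NexteraXT libraries, 58-base single reads). Per the study's methods, reads were trimmed, aligned to GRCm38 with STAR and Ensembl 91 annotation and counted with HTSeq (0.4.1 in the submitters' notes); neither the strand setting nor what was done with duplicate reads is stated in the sources used here. Of 129 pairs of libraries of 1 group none was identical. At depths of 1304560 to 2759926 counts a gene with no counts may still be present at about 1.47 CPM, and such limits cover counting error only.

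Groups were taken from the labels, and the 3 libraries with under 1000000 counts were left out, as in the study's quality control. Counts of protein-coding genes reaching 1 CPM in 10% of the libraries or more entered edgeR 4.0.16 (R 4.3.3), with TMM factors and the quasi-likelihood fit, with 14 group terms and no mouse term; the study itself used limma's voom with quality weights, which is an alternative here (limma 3.58.1), as is DESeq2 1.42.0. A gene was called at an adjusted p (Benjamini-Hochberg over all genes tested) of at most 0.05 and a fold change of at least 1.5. CPM used TMM-scaled library sizes, and the standard error was computed from the fold change and the F statistic. A fold against a group with no counts was taken against 3 counts over that group, and overlap was judged on CPM of single libraries. Scripts were tested on simulated counts.

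Libraries with the same mouse number come from the same animal. Deviations from the group means of same-mouse ST2+ and ST2- libraries of a tissue correlated with a mean r of 0.0717 (27 pairs, 6 above 0.1) and those of different mice with -0.0175 (108 pairs). The mouse was therefore also fitted as a replicate block. Other alternatives were median-of-ratios factors, no filter, 1 CPM in 50% of libraries, all 70 libraries, CD44hi libraries alone (for CD44hi against CD44lo CD62L+ Tregs, spleen and lung libraries alone) and leaving out each mouse. Added after seeing the data were sorted cells as a covariate, libraries of 100 cells or more, and libraries without Ncr1 counts.

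The 9 genes and all lists were chosen with earlier results of these data known. All 9 are named. From the wider list, genes called in 2 or more ST2 comparisons, or with the smallest adjusted p of their role, may be named, as are the 3 genes with the highest Spearman's rho to each member. Coordinates are from GENCODE M21 on GRCm38, which held 53274 of the 53465 gene identifiers.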

Additional observations from a re-analysis of the deposited data

Results flagged for a closer look

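Among 102 groups of 4 or 5 libraries with any counts of a gene, 10 held a library far from the others. For 5 libraries this meant a gap to its nearest neighbour of over 0.71 of the range, and for 4 the limit was higher. Such limits give about 1 in 20 groups by chance only if values are normally distributed. A group with counts in a single library always passes, whatever the level, so the 10 groups cannot be weighed against that rate. Several of the 10 were groups of Gzma, Gzmk or Prf1 with most libraries at or near 0. Gzma in VAT ST2+ Tregs was 89.2 CPM in mouse 5, next to 0.453 CPM. Gzmk was 4.43 CPM in lungs ST2- Tregs of mouse 3 and 6.50 CPM in lungs ST2+ Tregs of mouse 2. Prf1 stood apart in mouse 4 in lungs ST2+ (24.6 CPM) and VAT ST2+ (17.8 CPM) and in mouse 1 in skin ST2- (125 CPM) and skin ST2+ (85.5 CPM). Ccl5 stood apart in mouse 4 in CD44lo CD62L+ Tregs of spleen (11.4 CPM) and lungs (10.3 CPM). Fasl was 159 CPM in colon ST2- Tregs of mouse 3, next to 81.0 CPM.

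The difference between ST2+ and ST2- Tregs varied over the 6 tissues for Gzma by the interaction test of edgeR (adjusted p = 0.0285), as given above.

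The 3 libraries left out for depth still held counts of some of the genes. The blood ST2+ library of mouse 1, made from 66 cells with 488666 counts in all, had over 3 counts of 2 genes, 391 of Srgn and 84 of Nkg7. The colon ST2+ library of mouse 2, with 3582 counts, had over 3 counts of 1 gene, 5 of Srgn. The colon ST2+ library of mouse 5, with 62333 counts, had over 3 counts of 3 genes, 139 of Srgn, 9 of Nkg7 and 6 of Gzmb.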

How the results depend on the processing

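No direction of a called gene was reversed under any alternative. Of the 34 calls of single genes, DESeq2 kept all 33 for which it gave an adjusted p, limma's voom 29, the replicate block 31, the covariate 29 and libraries without Ncr1 counts 31, and leaving out 1 mouse kept 21 to 30. The 8 ST2 calls became 4 with sorted cells as a covariate and 2 to 7 without 1 mouse. The 6 calls with CD44 became 10 with voom and 5 without any 1 mouse. The 12 calls of ST2- tissues became 18 with voom and 9 to 11 and the 8 of ST2+ tissues 5 to 9 without 1 mouse. The 1 interaction call became 5 with voom and 0 with the filter of 1 CPM in 50% of libraries (which drops Gzma and Gzmk), with libraries of 100 cells or more and without any 1 mouse. With mouse as a replicate block, the pairing gave 7, 5, 11 and 9 calls of members in these 4 comparisons and 1 interaction call, and it changed no call other than those given above. Over all genes, the 1154 ST2 calls became 1971 with DESeq2, 1747 with voom and 539 to 1120 without 1 mouse; the 1388 calls with CD44 became 2762 with voom and 927 to 1149 without 1 mouse; the 7331 of ST2- tissues became 11083 with voom and 5251 to 6463 without 1 mouse; the 7914 of ST2+ tissues became 5123 to 6887 without 1 mouse; and the 184 interaction calls became 475 with DESeq2, 862 with voom, 105 with all 70 libraries and 36 to 135 without 1 mouse. The cause was not tested, except that leaving out a mouse removes libraries. Counts of Gzma, Gzmk and Prf1 were 0 in 44, 56 and 15 of the 67 libraries, and the part of depth in this was not tested. Replicates are separate mice, but each library is 1 sort, so an uneven sort and an uneven animal cannot be told apart.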

Other observations

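Of the other 7 granzyme genes in the wider list, Gzmc and Gzmm passed the filter and neither was called in any comparison. Gzmc, a granzyme of cytotoxic lymphocytes, had counts in 56 of the 67 libraries and reached 112 CPM. Its smallest adjusted p was 0.0873 (edgeR), for skin ST2+ Tregs with 44.3 ± 40.0 CPM against spleen ST2+ Tregs with 7.31 ± 10.4 CPM (SD, n = 5 each). Gzmd, Gzme, Gzmg and Gzmn had no counts, and Gzmf had counts in 8 libraries and was not tested. The genes of the granzyme cluster are close copies, so reads shared between them could be lost or split in counting.

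Of the 5 granule inhibitors of the wider list, 3 were called higher in CD44hi than in CD44lo CD62L+ Tregs of spleen (4.99% of all genes called) and of lungs (5.55%).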
